A study of Homo sapiens with 3 samples.

Results

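The MCM genes are named after minichromosome maintenance, the yeast assay in which the first of them were found. The 10 genes described here, MCM2 to MCM10 and MCMBP, were taken by symbol from the 58051 genes with deposited counts, after each Ensembl identifier had been joined to GENCODE release 44. All 10 were found, each under 1 identifier, and no gene in the release was annotated as a pseudogene of a member. The counts came from H9 cells, an established line of human embryonic stem cells, wild type and untreated, grown without feeder cells in Essential 8 Flex medium on vitronectin. RNA was sequenced in 3 replicates after depletion of ribosomal RNA, and nothing in the labels says whether these were separate cultures, so the spread between them may be technical. Totals were 10390984, 12024802 and 8655155 reads on genes in replicates 1, 2 and 3. The series has 1 condition, so that no difference between treatments could be tested. An exact permutation test of 3 values against 3 cannot go below p = 0.10, and none was made between genes. Levels are given as TPM, a unit in which the reads of a gene are divided by the summed length of its exons and scaled to the same sum in every replicate.

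MCM2 to MCM7 encode the subunits of a ring, with 1 copy of each, that encircles DNA and unwinds it ahead of the replication fork. The ring is loaded on DNA in the G1 phase by the origin recognition complex (ORC), CDC6 and CDT1, a step known as licensing. In the S phase it becomes active when CDC45 and the GINS complex join it to form the CMG helicase. MCM8 and MCM9 have the same ATPase fold, but form a complex of their own that acts in homologous recombination. MCM10 has another fold and helps the assembled CMG helicase to start unwinding. MCMBP binds MCM proteins that are not on DNA. Genes of the ring are textbook targets of E2F factors, which raise transcription of replication genes as cells enter the S phase. Embryonic stem cells divide rapidly, with a short G1 phase, and are known for licensing many origins in that time.

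The promoters are shown first, as most of those examined hold a match of the E2F motif. RefSeq sequence on GRCh38.p14, from 250 bases before to 50 bases after the start site, was in the table used for MCM2, MCM3, MCM6, MCM7, MCM8, MCM9, MCM10 and MCMBP. For all 8 the start site was that of the canonical transcript. MCM4 and MCM5 are named only. The E2F motif was searched as TTTCGCGC, TTTGGCGC, TTTCCCGC or TTTGCCGC on both strands. Of the 8 promoters, 6 held at least 1 match, among them all 4 promoters of ring subunits. The share among promoters of 15250 protein-coding genes was 4.55%. A match is a description of these letters and not evidence of binding. The stretches below run from 100 bases before the start site and include the first 20 transcribed bases. Capitals mark the E2F motif and the CCAAT box (CCAAT on either strand), and MCM9, without an E2F match, is given for contrast.
MCM2 (chr3:127598311-127598430, plus strand): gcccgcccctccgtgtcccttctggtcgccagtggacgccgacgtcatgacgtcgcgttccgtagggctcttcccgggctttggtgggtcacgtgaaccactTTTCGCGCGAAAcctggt
MCM3 (chr6:52284723-52284842, minus strand): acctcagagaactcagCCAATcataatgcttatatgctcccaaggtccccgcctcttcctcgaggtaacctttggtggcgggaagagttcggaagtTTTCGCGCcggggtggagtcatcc
MCM6 (chr2:135876424-135876543, minus strand): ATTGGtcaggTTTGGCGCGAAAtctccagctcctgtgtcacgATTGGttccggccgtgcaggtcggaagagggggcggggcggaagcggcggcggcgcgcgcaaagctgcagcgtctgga
MCM7 (chr7:100101378-100101497, minus strand): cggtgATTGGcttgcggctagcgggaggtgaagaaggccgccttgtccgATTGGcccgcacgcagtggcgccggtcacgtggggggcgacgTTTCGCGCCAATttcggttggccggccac
MCMBP (chr10:119872824-119872943, minus strand): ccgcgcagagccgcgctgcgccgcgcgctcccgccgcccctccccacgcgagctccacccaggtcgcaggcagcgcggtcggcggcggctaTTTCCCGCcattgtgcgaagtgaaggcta
MCM9 (chr6:118935140-118935259, minus strand): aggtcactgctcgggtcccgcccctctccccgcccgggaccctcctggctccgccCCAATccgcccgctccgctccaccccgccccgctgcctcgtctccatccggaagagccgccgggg

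In MCM3, MCM7 and MCMBP the match lay across or directly before the start site, with its first base at position -4, -9 and -9. The E2F matches of MCM2 began at positions 3 and 7 after the start and overlapped on opposite strands. MCM6 held 2 such overlapping pairs, which began at -152 and at -90. MCM3 and MCM7 each held a further match, at -174 and at -187. MCM8 had its only match at position 27, outside the stretch shown for the others. In the windows of MCM9 and MCM10 no exact match of the searched E2F letters was found, and near matches were not counted in any window. In MCM7 the E2F motif shared its last base with a CCAAT box. CCAAT boxes stood in 6 of the 8 windows, against 36.7% of all promoters, and were absent from those of MCM2 and MCMBP. The GC box (GGGCGG on either strand) was in 7 of 8, against 61.9% of all promoters, and MCM3 was the member without one. MCM9 had the highest number of GC boxes, at 5. Matches of 2 other elements were few. The cell cycle element CHR (TTTGAA or TTCGAA) was in 1 window, that of MCM6, against 12.9% of all promoters, and the TATA box (TATAAA) in 1, at the far end of that of MCM9, against 9.34%.

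**Figure D1:**
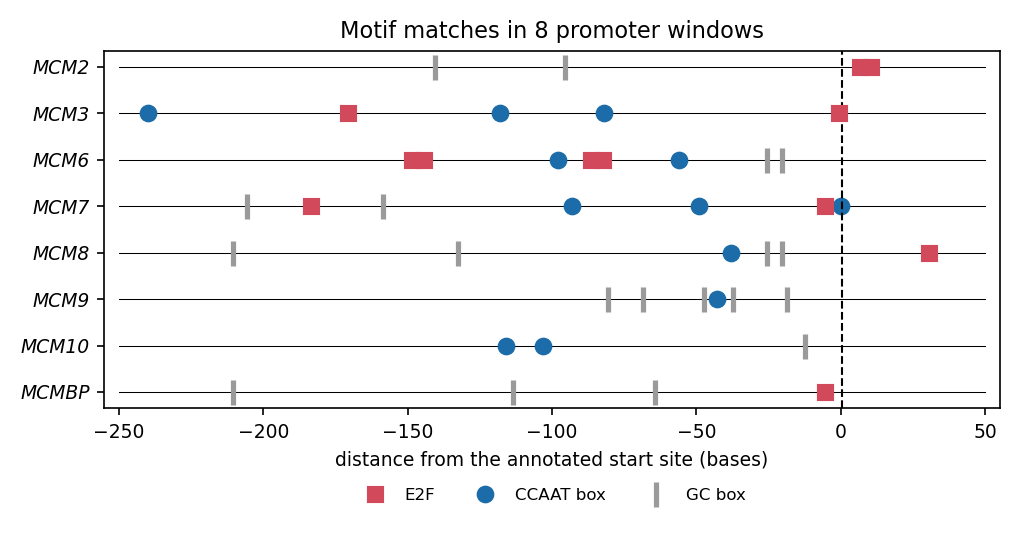
Matches of the E2F motif (red squares), the CCAAT box (blue circles) and the GC box (gray bars) in the promoter windows of 8 MCM family genes, by distance from the annotated start site (dashed line) in bases. E2F matches lie on the lines of 6 genes and not on those of MCM9 and MCM10.

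The ring genes were at high levels in H9 cells and lay above the other 4 members. Their mean levels ran from 190 TPM for MCM5 to 539 TPM for MCM3, with a median of 275 ± 8.58 TPM (SD, n = 3). Together they held 0.262 ± 0.00259% of all counted reads (SD, n = 3). MCMBP, MCM10, MCM8 and MCM9 followed in that order. The study calls genes below 0.01 TPM nonexpressed and divides the others into 3 quantiles. Applied to protein-coding genes here, its high class begins at 26.96 TPM. By that rule 9 of 10 members were in the high class, where 28.8% of the 19629 protein-coding genes lie, and MCM9 was in the medium class. Each member had the same class in all 3 replicates taken alone. RNA from all cells of a culture was pooled, so that fewer cells in the S phase and less RNA per cell cannot be told apart.

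MCM3 (ENSG00000112118, chromosome 6, 52264014 to 52284881, minus strand), whose protein contacts ORC and CDC6 during loading, had 5170, 6131 and 4171 reads in replicates 1, 2 and 3. These are 545, 556 and 516 TPM, with a mean of 539 ± 20.8 TPM (SD, n = 3), and 178 protein-coding genes were higher. MCM7 (ENSG00000166508, chromosome 7, 100092233 to 100101940, minus strand), which lies between MCM4 and MCM3 in the ring, had 5799, 6778 and 4893 reads, or 449, 452 and 444 TPM, with a mean of 448 ± 3.61 TPM (SD, n = 3). All 3 replicates of MCM3 were above all 3 of MCM7. MCM6 (ENSG00000076003, chromosome 2, 135839626 to 135876443, minus strand), which lies beside MCM2 in the ring, had 3199, 3861 and 2493 reads. Its level was 297, 309 and 272 TPM, with a mean of 292 ± 18.9 TPM (SD, n = 3), and replicate 3 was the lowest.

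MCM2 (ENSG00000073111, chromosome 3, 127598410 to 127622436, plus strand), whose protein also binds histones, had 3176, 3658 and 2722 reads, or 259, 256 and 260 TPM, with a mean of 258 ± 1.89 TPM (SD, n = 3). It varied least of all members. MCM4 (ENSG00000104738, chromosome 8, 47960185 to 47978160, plus strand), a target of the kinase that starts firing, had the most reads of the family, at 6273, 7392 and 5037. Its exons are also the longest of the ring, and its level was 245, 248 and 230 TPM, with a mean of 241 ± 9.34 TPM (SD, n = 3). MCM5 (ENSG00000100297, chromosome 22, 35400134 to 35425431, plus strand), which forms with MCM2 the gate of the ring, had 3659, 3987 and 3133 reads. Its level was the lowest of the ring, at 193, 181 and 194 TPM, with a mean of 190 ± 7.25 TPM (SD, n = 3). Replicate 2 was the lowest for MCM2 and MCM5, whereas it was the highest for MCM3, MCM4, MCM6 and MCM7.

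MCMBP (ENSG00000197771, chromosome 10, 119829404 to 119892556, minus strand) had 1764, 2136 and 1417 reads, or 113, 118 and 107 TPM, with a mean of 112 ± 5.65 TPM (SD, n = 3). The median of the ring genes was 2.45 times that of MCMBP. MCM10 (ENSG00000065328, chromosome 10, 13161558 to 13211110, plus strand) had 1095, 1266 and 859 reads, or 77.1, 76.7 and 70.9 TPM, with a mean of 74.9 ± 3.44 TPM (SD, n = 3). Both were in the high class and below every replicate of every ring gene. MCM8 (ENSG00000125885, chromosome 20, 5950652 to 5998977, plus strand) had 796, 1013 and 677 reads, or 39.8, 43.5 and 39.7 TPM, with a mean of 41.0 ± 2.20 TPM (SD, n = 3). MCM9 (ENSG00000111877, chromosome 6, 118813442 to 118935162, minus strand), its partner in recombination, had 313, 386 and 241 reads. Its level was 9.62, 10.2 and 8.69 TPM, with a mean of 9.51 ± 0.766 TPM (SD, n = 3). It was the lowest member in every replicate, and 53.9% of protein-coding genes were below it.

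**Figure D2:**
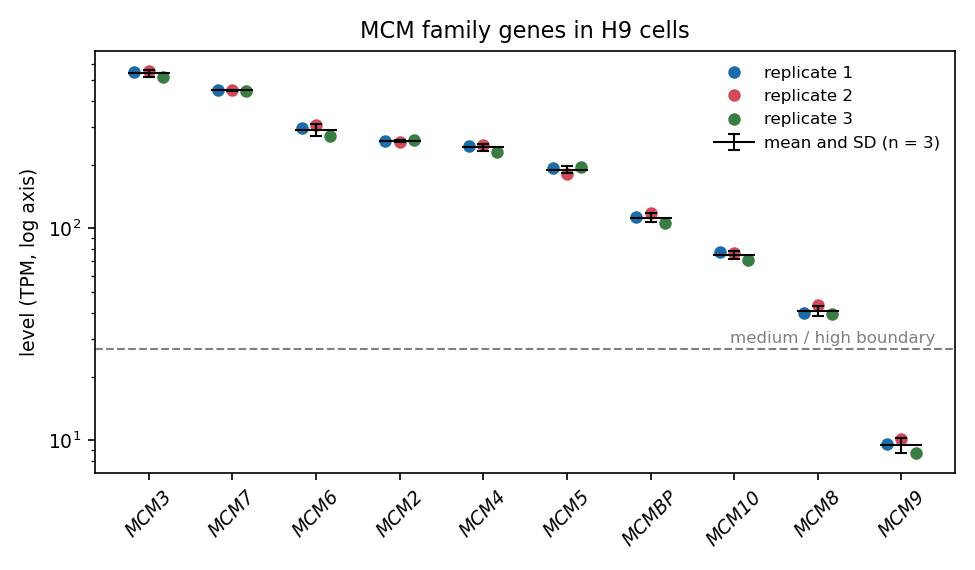
Levels of the 10 MCM family genes in TPM, on a log axis, in 3 replicates of H9 cells (colored points), with the mean and SD (black, n = 3). The dashed line is the boundary of the high class at 26.96 TPM, and MCM9 alone lies below it.

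In this order no neighbors overlapped, as in each of the 9 adjacent pairs the lowest replicate of the higher gene was above the highest replicate of the lower one. The closest pair was MCM2 and MCM4, which differed by 17.5 TPM, a ratio of 1.07. MCM6 was 34.0 ± 20.7 TPM above MCM2 (SD of the difference, n = 3). Both differences were less than 2 of their SDs in size, with MCM2 above MCM4 and MCM6 above MCM2 in 3 of 3 replicates. The highest ratio of adjacent genes was that of MCM8 to MCM9, at 4.31, with a difference of 31.5 ± 1.65 TPM (SD of the difference, n = 3), whereas in TPM the widest gap was 155.9 ± 15.3 between MCM7 and MCM6. In the ring, where each protein is present once, the highest RNA level was 2.84 times the lowest, and this ratio was 2.82, 3.07 and 2.65 in replicates 1, 2 and 3. Relative to the geometric mean of all 6 ring genes, the difference on the log2 scale was 0.81 ± 0.03 for MCM3, 0.55 ± 0.02 for MCM7 and -0.07 ± 0.07 for MCM6 (SD, n = 3). It was -0.25 ± 0.04 for MCM2, -0.35 ± 0.03 for MCM4 and -0.69 ± 0.08 for MCM5.

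The order within the ring changed with the gene length by which reads were divided. The union of all annotated exons, used above, contains retained introns and alternative ends, and was 2.43 times the canonical transcript for MCM4, 2.39 times for MCM9 and 2.01 times for MCM7. For MCM5 it was 7268 bases against 3458. It was 1.03 times that transcript for MCM8 and 1.10 times for MCM6. With the canonical transcript as length, MCM7 was highest at 544 ± 2.44 TPM and MCM6 lowest at 194 ± 11.8 TPM (SD, n = 3). MCM3 was then at 386 ± 13.5 TPM and MCM4 at 353 ± 12.3 TPM. With the coding sequence as length, MCM7 was again highest, at 317 ± 2.17 TPM, followed by MCM4 at 269 ± 7.11 TPM and MCM3 at 236 ± 6.32 TPM. MCM2 was then the lowest ring gene, at 138 ± 2.67 TPM. Across the 4 lengths the ratio of the highest to the lowest ring gene was 2.29 to 2.84. The order MCMBP, MCM10, MCM8 and MCM9 below the ring was the same with every length. MCM8 was 4.31 times MCM9 over all exons, 3.45 times over coding sequence, 2.69 times over the longest transcript and 1.85 times over the canonical transcript. At 25.4 TPM over the canonical transcript MCM8 fell below the high class, which then began at 26.4 TPM.

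**Figure D3:**
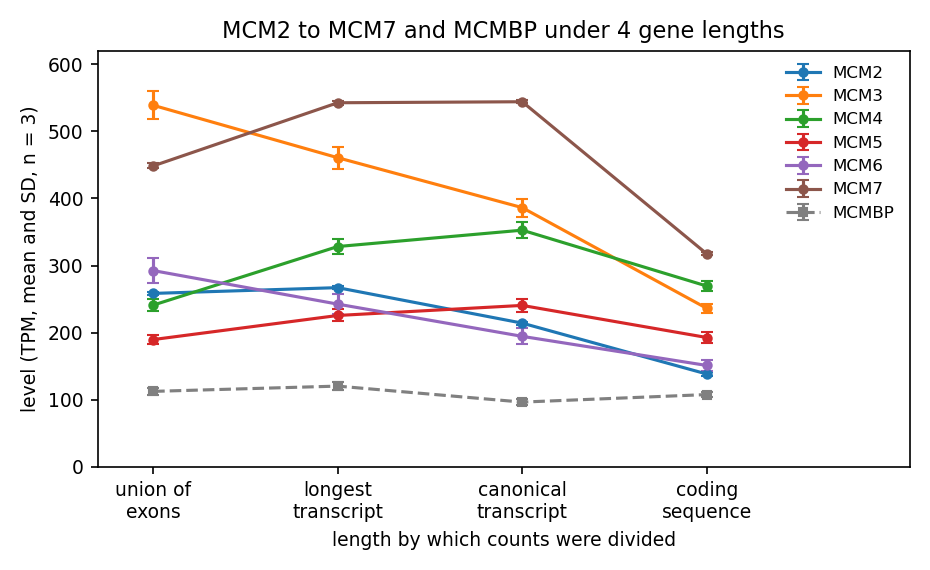
Levels in TPM (mean and SD, n = 3) of MCM2 to MCM7 and of MCMBP when the same counts are divided by 4 different gene lengths. MCM7 is highest under 3 of the 4 lengths and MCM3 under the union of exons, and all 6 ring genes stay above MCMBP.

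Exons shared with another gene were few for most members. MCM3, MCM4, MCM5, MCM6 and MCM10 shared no exonic base with any gene of the release. The use of strand in counting is not given in the sources used here, so that reads in such overlaps have an uncertain origin. MCM2 shared 1113 bases, 32.4% of its canonical transcript, with the lncRNA gene ENSG00000285600 on the opposite strand. MCM8 shared 2510 bases, 33.5% of its canonical transcript, with ENSG00000286235, a longer protein-coding gene model on the same strand. No identifier of either was among the deposited counts used here. MCM7, MCM9 and MCMBP shared between 0.800% and 7.90% of their union of exons with genes on the opposite strand, and MCM7 shared 29 bases with the microRNA gene MIR93 on its own strand.

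Several members lie head to head with a gene on the other strand, with both gene starts within 1000 bases. A protein-coding neighbor of this kind was found for MCM2, MCM4, MCM7, MCM8 and MCMBP, 5 of 10 members, and for 13.4% of all protein-coding genes. Levels and ratios of these pairs are over the union of exons, and the other gene lengths were not applied to the neighbors. MCM8 and TRMT6, a subunit of a tRNA methyltransferase, start 94 bases apart and had near levels by that length. By the union of exons TRMT6 was at 47.8, 43.9 and 41.6 TPM, with a mean of 44.4 ± 3.16 TPM (SD, n = 3). The ranges of both genes overlapped by that length, although TRMT6 was above MCM8 in 3 of 3 replicates. Over the canonical transcript MCM8 was at 25.4 TPM, a value that cannot be set beside these levels of TRMT6. MCM4 and PRKDC, which encodes a kinase of DNA end joining, start 7 bases apart. PRKDC was at 139, 122 and 120 TPM, and the mean of MCM4 was 1.90 times that of PRKDC. MCMBP was 1.88 times its neighbor SEC23IP, at 59.9 ± 4.27 TPM (SD, n = 3). Larger gaps were seen at MCM7 and MCM2. MCM7 was 11.3 times AP4M1, a subunit of an adaptor complex, at 39.8 ± 3.06 TPM, and MCM2 was 24.0 times TPRA1, at 10.8 ± 0.476 TPM (SD, n = 3). The canonical transcripts of MCM4 and PRKDC start 805 bases apart, farther than the genes. The same holds for MCM2 and TPRA1, at 7678 bases, MCMBP and SEC23IP, at 19887 bases, and MCM8 and TRMT6, at 119 bases. Those of MCM7 and AP4M1 start closer than the genes, at 246 against 391 bases. On the other strand at MCM9 stands the lncRNA gene ENSG00000253194, with 6, 10 and 6 reads.

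MCM7 also hosts a cluster of microRNAs, MIR106B, MIR93 and MIR25, in intron 13 of its canonical transcript. Their mature forms are shown as RefSeq gives them, 5′ to 3′, with the seed (bases 2 to 8) in capitals, as it decides which messenger RNAs a microRNA can pair with.
miR-106b-5p: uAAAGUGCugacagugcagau
miR-93-5p: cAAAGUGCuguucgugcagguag
miR-25-3p: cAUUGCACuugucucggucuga

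The seed AAAGUGC is common to miR-106b-5p and miR-93-5p, whereas miR-25-3p has AUUGCAC. The deposited table counted 3, 2 and 5 reads on the hairpin gene MIR106B (chromosome 7, 100093993 to 100094074), 4, 7 and 7 on MIR93 (100093768 to 100093847) and 9, 17 and 8 on MIR25 (100093560 to 100093643). MCM7 had between 4893 and 6778 reads in the same replicates. The library was not made to capture mature microRNAs, and reads of the host transcript cannot be told apart from those of the hairpins.

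The genes that work with the helicase were then set beside the ring. CDC45 and GINS1 to GINS4, which join MCM2 to MCM7 in the CMG helicase, had lower levels, from 18.5 TPM for GINS3 to 74.9 TPM for GINS2. CDC45 was at 39.9, 46.4 and 44.5 TPM, with a mean of 43.6 ± 3.35 TPM (SD, n = 3). GINS1 and GINS2 had nearly the same mean, at 74.8 ± 1.83 and 74.9 ± 6.84 TPM (SD, n = 3). GINS3, with 18.7, 17.4 and 19.6 TPM, was the only one of the 5 in the medium class. The median of the ring genes was 4.40 times that of these 5 genes, and 4.38, 4.33 and 4.48 times in replicates 1, 2 and 3. Over the canonical transcript the ratio was 5.43, and over coding sequence it was 1.61, with GINS1 then at 305 TPM. The excess of ring RNA over that of its partners thus depends on the length used.

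Of all protein-coding genes, 28.8% lie in the high class. Among the loading factors, all 8 were in the high class, with a median of 66.3 TPM. They ranged from 29.4 TPM for ORC5 to 140 TPM for ORC1, the largest ORC subunit, and CDC6 was at 139 TPM. GMNN, which encodes the CDT1 inhibitor geminin, was at 133 TPM. Of the 10 genes that turn the loaded ring into an active helicase, 8 were in the high class, led by the kinase gene CDC7 at 102 TPM. MTBP, at 9.91 TPM, and DBF4B, at 18.2 TPM, were in the medium class. All 7 genes of fork proteins were in the high class, with a median of 46.2 TPM and PCNA, the sliding clamp, at 802 TPM. Of 6 genes for removal of the helicase, 3 were in the high class, and VCP, the ATPase that extracts it, was at 248 TPM. Of these and the other genes of the replication, recombination and E2F lists, 54 in all, PCNA and VCP alone were above the lowest ring gene with 3 of the 4 gene lengths. With the coding sequence as length, 6 were above it. Over the union of exons, the recombination genes that act beside MCM8 and MCM9 had a median of 23.9 TPM, between MCM9 and MCM8. Of these genes, 3 of 9 were in the high class. HROB, which encodes the protein that recruits MCM8 and MCM9 to DNA, was at 25.1, 28.2 and 22.0 TPM. MCMDC2 is a further gene with an MCM domain, known for meiotic recombination. By the union of exons it was at 14.4 ± 1.62 TPM (SD, n = 3), above all replicates of MCM9. Over the canonical transcript MCM9 was at 13.9, 14.7 and 12.6 TPM, and no level by that length is given here for MCMDC2. Of the E2F genes, 6 of 8 were in the high class, with E2F4 at 97.1 TPM, E2F3 at 81.3 TPM and E2F1 at 77.9 TPM. These lists were chosen with earlier results of these data known, and their counts are descriptions.

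**Figure D4:**
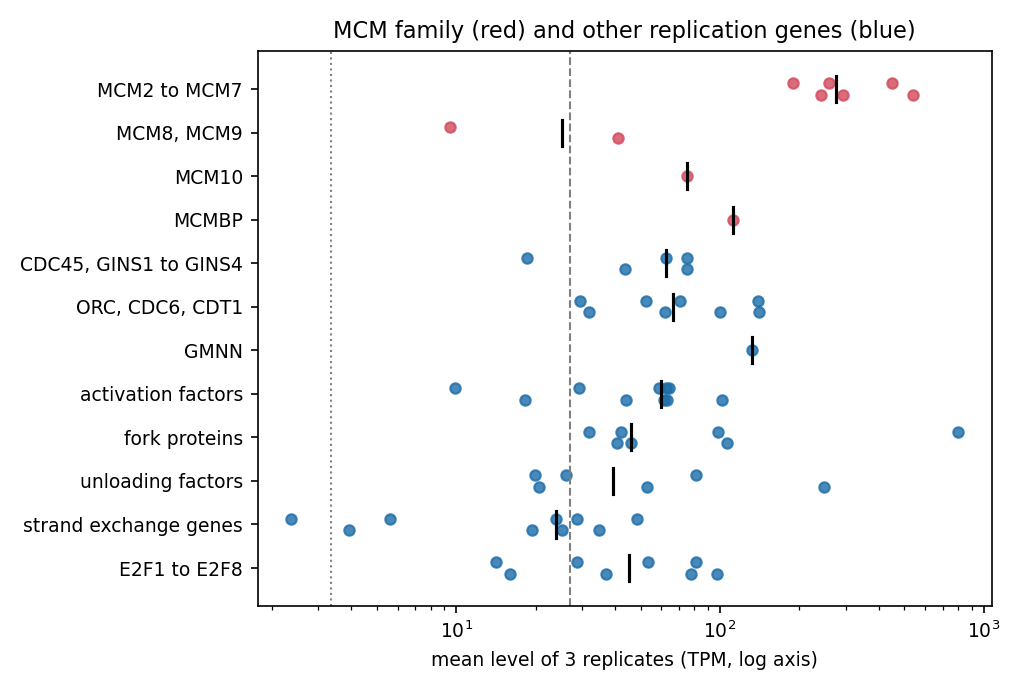
Mean level of 3 replicates in TPM, on a log axis, of the MCM family genes (red) and of genes that load, activate, accompany or remove the helicase, of strand exchange genes and of E2F genes (blue). Each point is a gene, black bars are medians, and the dotted and dashed lines are the lower boundaries of the medium and the high class. All blue points except PCNA and VCP lie to the left of every ring gene.

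The level of the ring was next placed beside marker genes. All 6 pluripotency genes examined were in the high class, where 28.8% of protein-coding genes lie, from 275 TPM for NANOG to 2576 TPM for LIN28A. All 6 genes of cycling cells were in the high class as well, with MKI67 at 138 TPM and TOP2A at 434 TPM. Of 11 genes that mark other cell types, 8 were in the low class, which holds 5656 of the 19629 protein-coding genes. Among them, PTPRC of blood cells and CGA of trophoblast were near 0, at 0.0549 and 0.0645 TPM. FOXA2 of endoderm, at 7.54 TPM, and COL1A1 of fibroblasts, at 14.6 TPM, were in the medium class. THY1, at 145 TPM, was the only one in the high class, and it is also known from human embryonic stem cells. Whether other cells had a part in the levels of the family was not tested.

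The spread between replicates was small for every member. The coefficient of variation (CV) of TPM was 0.732% for MCM2, 0.805% for MCM7 and between 3.82% and 8.05% for the other 8, with the highest in MCM9. The median CV was 4.24%, against 5.03% for all protein-coding genes of the high class. The 2 sets differ in level, with a median of 215 TPM for the members and 60.7 TPM for that class. Counting alone gives a CV of 1.78% at the depth of MCM2 and 1.32% at that of MCM7, so that both varied by less than counting error. The CVs of the 8 others were above theirs, such as that of MCM6, with 6.46% against 1.80%, and that of MCM9, with 8.05% against 5.75%. An SD of 3 values is imprecise, and none of these differences was tested. Counting error takes reads as independent, which PCR copies are not. The share of all genes with a CV above counting error is not given here, so that the count describes these members only.

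Replicate 3 had the lowest level of 8 members, and the same 8 of 10 were below the mean of replicates 1 and 2, as were 57.9% of all 9946 genes with at least 100 reads in every replicate. The log2 ratio of replicate 3 to the mean of the others was -0.19 for MCM9, -0.16 for MCM6 and between -0.12 and -0.02 for MCM10, MCMBP, MCM4, MCM3, MCM8 and MCM7. It was 0.01 for MCM2 and 0.05 for MCM5. MCM2, MCM5 and MCM7 have the highest GC contents of the family, at 57.4%, 56.3% and 55.8% of the canonical transcript, and the other members lie between 42.0% and 51.7%. Spearman's rho between GC content and this ratio was 0.624 across the 10 members and 0.420 across the 9946 genes, which share the same libraries. In the all-gene bin with a median GC content of 43.6% the median log2 ratio was -0.08, and in that with 55.7% it was 0.01. Within the family the ratio of replicate 3 to the others tended to be higher at higher GC content, with exceptions. MCM8, with the lowest GC content at 42.0%, was at -0.07, above MCM3 with 51.7% at -0.09. The part of GC content in the ratio and in the levels was not tested.

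**Figure D5:**
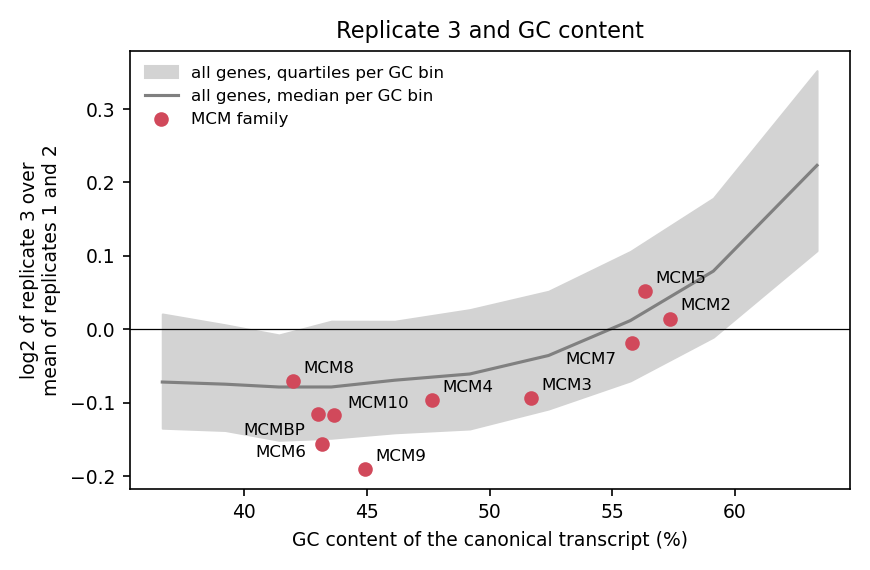
Log2 ratio of the TPM in replicate 3 to the mean of replicates 1 and 2 against GC content of the canonical transcript in percent, for the MCM family (red points) and for 9946 genes in 10 bins of GC content (gray line, median, and gray band, quartiles). MCM2 and MCM5 lie above 0 and the other 8 members below.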

How the data were processed

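The study profiled RNA of untreated H9 cells in triplicate. Libraries were made from 750 ng of RNA with a RIN above 7, depleted of ribosomal RNA and amplified for 8 PCR cycles. The authors trimmed reads with Trim Galore 0.4.4, aligned them to GRCh38 with TopHat2 2.1.1, and deposited whole-number counts per gene without normalization. For the counting tool, gene annotation and strand setting, nothing was given in the sources used here. Cufflinks 2.2.1 served for the TPM of the study, which was not used. Counts were joined to GENCODE release 44 on GRCh38, and 1103 unmatched identifiers, holding at most 0.294% of the reads, received no level. TPM was computed with numpy 2.4.6 and pandas 2.3.3 in Python 3.11.15 over the union of exons, and averaged over the 3 replicates. The classes followed the study and were applied to protein-coding genes. TMM factors of edgeR 4.0.16 and size factors of DESeq2 1.42.0, in R 4.3.3, were alternatives only. Promoters and microRNAs are RefSeq sequences. The script for levels and classes was tested on simulated data. No model was fitted across genes, and with 3 replicates of 1 condition no likeness of pattern between genes was computed. Genes named are the members, the listed genes of replication, recombination, E2F factors and markers, and genes that overlap, adjoin or lie within a member. Members and lists were chosen with earlier results of these data known.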

Additional observations from a re-analysis of the deposited data

How the results depend on the processing

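The median of MCM2 to MCM7, 275 TPM, was 298 TPM with the longest transcript, 297 TPM with the canonical transcript and 214 TPM with the coding sequence as gene length, 287 TPM without mitochondrial genes in the total, and 422 as CPM, which is another unit. The ratio of the highest to the lowest ring gene, 2.84, was 2.41 with the longest transcript, 2.29 with the coding sequence and 1.96 as CPM. The ratio of the ring median to the mean of MCM8 and MCM9, 10.9, was 13.7 with the longest transcript, 15.2 with the canonical transcript, 9.05 with the coding sequence and 7.70 as CPM. The ratio to CDC45 and the GINS genes, 4.40, was 4.49, 5.43, 1.61 and 6.94 under the same 4 settings. These shifts follow from the lengths and totals put in. Without replicate 1, 2 or 3 the values lay between 272 and 280 TPM for the median, 2.74 and 2.94 for the spread within the ring, 10.7 and 11.1 over MCM8 and MCM9, and 4.36 and 4.43 over CDC45 and GINS. Rescaling by TMM or DESeq2 factors, leaving out genes with fewer than 10 reads and the median over replicates moved none of these 4 values by more than its SD. For the ratios, rescaling and leaving out genes could not show a shift. Each puts 1 factor on a whole replicate, which cancels between genes of that replicate. The number of members in the high class was 9 under 12 of 14 alternatives, 8 with the canonical transcript, where MCM8 left it, and 10 when all genes were classified. Of the 10 single levels, the longest and the canonical transcript moved all 10 by more than their SD, the coding sequence 8, leaving out mitochondrial genes 5 and leaving out genes with few reads 2. Depth limits MCM9 most, with 241 to 386 reads in a replicate. No paired analysis was possible because all 3 replicates belong to 1 condition.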
